A study of Drosophila melanogaster with 18 samples.

Results

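Mitosis-only H4K8ac peaks were the peaks of the mitotic list of histone H4 acetylated on lysine 8 (H4K8ac) that shared no base with any peak of the interphase H4K8ac list. There were 1175 of them among 5405 mitotic H4K8ac peaks, which is 21.7% of the mitotic list, and 18020 H4K8ac and GAF peaks were called in all. The remaining 4230 mitotic peaks overlapped an interphase peak and are called shared, and 1510 interphase peaks that overlapped no mitotic peak are called interphase-only. The members were chosen by measured values, the called H4K8ac positions of both stages, so their number, their length and their distance to interphase peaks are descriptions and carry no test. H4K8ac was mapped by chromatin immunoprecipitation and sequencing (ChIP-seq) in wild-type yw Drosophila embryos collected 1 to 2.5 h after egg laying, with 2 samples of interphase embryos, 2 samples of mitotic embryos and an input sample for each, 1000 embryos a sample. Embryos were stained for the mitotic mark phosphorylated serine 10 of histone H3, sorted and then checked by hand, and the GAGA factor (GAF) was mapped the same way in 3 interphase and 2 mitotic samples. Peaks were called on the mean signal of the pooled samples of a stage, and the lists give positions only. No value per sample, score or depth was therefore analysed here, and every interval below is a 95% interval that covers counting error only. "Mitosis only" says that no interphase peak was called at that place, where a call needs signal over a threshold along a minimum run. Interphase signal that made no peak was not analysed here. Mitotic chromatin was sonicated for longer than interphase chromatin, so that stage and sonication cannot be told apart.

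Acetylation of histone H4 on lysine 8 is a mark of active regulatory DNA that appears early, as the zygotic genome is switched on. In mitosis chromosomes condense, transcription stops and many factors leave the chromatin, and marks or factors that stay are studied as mitotic bookmarks. GAF, the product of the Trithorax-like gene, binds GAGAG motifs, helps to open chromatin and is found on mitotic chromosomes. Zelda, the other pioneer factor of the early embryo, binds the CAGGTAG element, and TATCGATA is the DNA replication-related element found at promoters of housekeeping genes.

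Sequences of members were read from the RefSeq copy of the Release 6 genome (dm6), plus strand, with start positions counted from 1 and lengths taken as end minus start, as in the peak lists. The first 6 stretches lie in mitotic GAF peaks inside members. Each is the part richest in GAGAG among windows that met no annotated exon or transposon. GAGAG was read on both strands as GAGAG or CTCTC and is in capitals. They come from members at ac (chrX:369801-369921), at sd (chrX:15811751-15811871) and in an intron of lncRNA:CR45668 (chrX:5886961-5887081). The stretch labelled Or88a (chr3R:14108401-14108521) lies between the start sites of CG12402 and Or88a, closer to that of CG12402. The others come from an intron of the Bithorax Complex transcript lncRNA:iab8 (chr3R:16857681-16857801) and an intron of spok (chr3R:3344851-3344951). The next is 107 bp of a long member at lncRNA:CR44931 (chr3R:6886400-6886507), whose capitals mark CAGGTAG, read here as CTACCTG. The last is a whole member of 200 bp in an intron of Sema5c (chr3L:12076001-12076201) that touches an interphase peak, with the GAGAG match in capitals.
ac: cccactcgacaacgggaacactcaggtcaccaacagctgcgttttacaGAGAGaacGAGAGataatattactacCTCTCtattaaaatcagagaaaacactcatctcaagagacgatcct
sd: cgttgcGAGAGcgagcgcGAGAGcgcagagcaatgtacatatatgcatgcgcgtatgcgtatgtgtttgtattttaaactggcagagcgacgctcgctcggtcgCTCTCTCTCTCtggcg
lncRNA:CR45668: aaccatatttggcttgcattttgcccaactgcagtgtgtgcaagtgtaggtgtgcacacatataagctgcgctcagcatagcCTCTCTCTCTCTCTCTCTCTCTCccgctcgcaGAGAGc
Or88a: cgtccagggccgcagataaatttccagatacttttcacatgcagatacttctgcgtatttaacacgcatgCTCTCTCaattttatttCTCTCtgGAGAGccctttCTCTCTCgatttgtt
iab8: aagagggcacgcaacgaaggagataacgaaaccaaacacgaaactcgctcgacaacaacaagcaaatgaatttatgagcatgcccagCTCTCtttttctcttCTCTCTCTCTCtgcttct
spok: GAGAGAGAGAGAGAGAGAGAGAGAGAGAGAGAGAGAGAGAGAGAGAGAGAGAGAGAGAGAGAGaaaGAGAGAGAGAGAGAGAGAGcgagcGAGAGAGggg
lncRNA:CR44931: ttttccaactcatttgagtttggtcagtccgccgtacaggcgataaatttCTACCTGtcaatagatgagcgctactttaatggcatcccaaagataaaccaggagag
Sema5c: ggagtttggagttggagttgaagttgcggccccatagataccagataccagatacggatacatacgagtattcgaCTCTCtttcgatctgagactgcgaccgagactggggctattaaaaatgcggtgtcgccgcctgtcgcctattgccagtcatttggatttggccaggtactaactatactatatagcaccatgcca

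The stretch at ac held 3 matches to GAGAG, that at sd 6, that at lncRNA:CR45668 11, that at Or88a 6 and that at iab8 5. The spok member was 100 bp long, had the same ends as the mitotic GAF peak in it and held 40 overlapping matches, so that nearly every base belonged to a GA repeat. The 5 other GAF stretches held GAGAG in shorter runs.

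Most mitosis-only peaks were short. Their length ranged from 100 to 8800 bp with a median of 200 bp (quartiles 100 and 600 bp, n = 1175), and the mean was 574 ± 864 bp (SD). Shared mitotic peaks had a median of 1450 bp (quartiles 550 and 3300 bp, n = 4230), and interphase-only peaks had the same median as the members, 200 bp (quartiles 150 and 450 bp, n = 1510). Exactly 100 bp, the smallest length in the list, was found for 354 members (30.1%), for 108 shared mitotic peaks (2.55%) and for 367 interphase-only peaks (24.3%). By length, 749 members (63.7%) reached at most 250 bp, 141 measured 300 to 600 bp, 91 measured 650 to 1200 bp and 194 (16.5%) were longer than 1200 bp. The mitotic list itself changed along this scale, since members were 749 of its 1135 shortest peaks (66.0%, interval 63.2 to 68.7%) and 194 of its 2610 peaks over 1200 bp (7.43%, interval 6.49 to 8.50%). All members together covered 0.674 Mb, which was 5.19% of the bases in mitotic H4K8ac peaks, and the 194 long ones held 63.9% of it.

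The nearest interphase H4K8ac peak lay a median of 4750 bp from a member (quartiles 2200 and 13750 bp), and the farthest lay 360250 bp away. Within 10000 bp of an interphase peak were 806 members (68.6%), within less than 2000 bp were 266 (22.6%), and 85 (7.23%) were 50000 bp or more away. The median distance was 4850 bp for members up to 250 bp and 4875 bp for members over 1200 bp. Of the 266 members closer than 2000 bp, 206 had an interphase-only peak as their nearest neighbor and 60 a shared one. Of the 909 members at 2000 bp or more, 646 had a shared neighbor. The whole interphase list held 4296 peaks that overlapped a mitotic peak and 1510 interphase-only peaks. Mitotic H4K8ac peaks were never closer to each other than 2000 bp. A member could therefore not lie closer than that to a shared mitotic peak, whose median distance was 8650 bp. This gap limits how often a shared interphase peak can be the nearest one under 2000 bp.

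**Figure D1:**
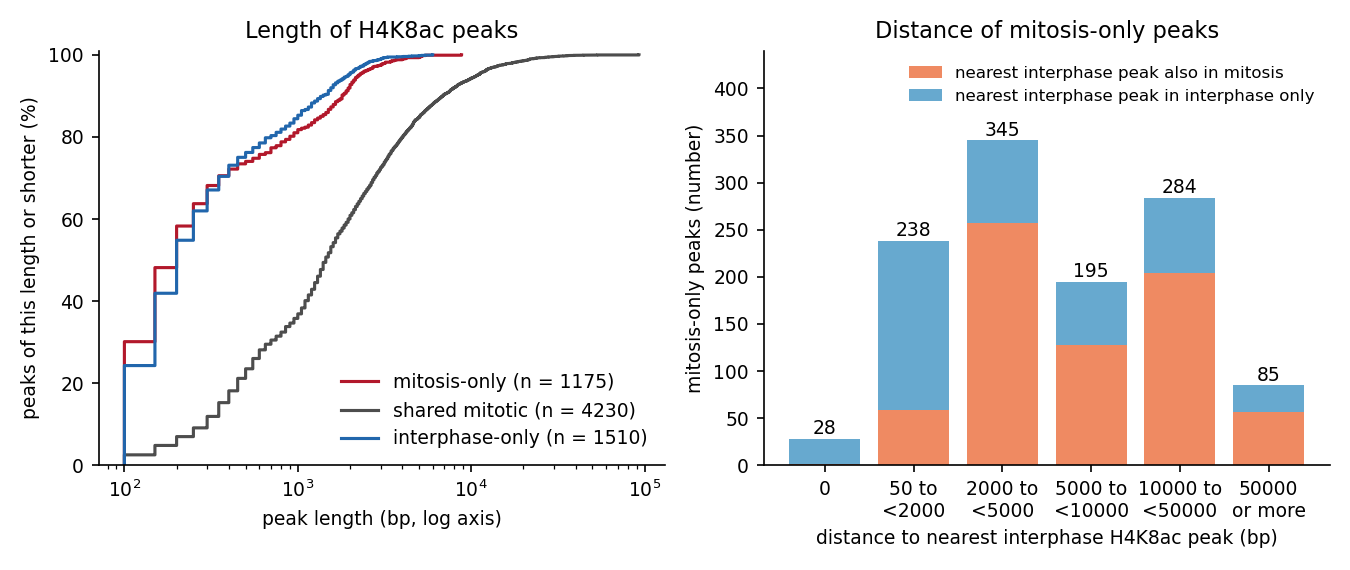
The left plot gives the percentage of peaks (vertical axis) up to each length in bp (log axis), where mitosis-only and interphase-only peaks run together with a median of 200 bp and shared mitotic peaks lie far to the right with a median of 1450 bp. The right plot gives the number of mitosis-only peaks in 6 bins of distance to the nearest interphase H4K8ac peak in bp, split by the kind of that neighbor, with the tallest bar of 345 peaks in the bin that starts at 2000 bp.

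On the inner side of the threshold, 28 members touched an interphase peak with no base between them and 15 lay 50 bp away. The ends of the peak intervals were read as excluded, and the touching members, which include those at otk, pnt, chrb and Sema5c, would share 1 bp with the interphase peak and leave the set if ends were included, giving 1147 members. The touching members were 100 to 3100 bp long, and the longest were chr2R:12015551-12018651 in an intron of otk, chr3R:28794401-28796851 near intr and chr3R:20845001-20847351 at CG15696. A touching member of 2000 bp lay in an intron of pnt, which encodes an ETS factor downstream of receptor tyrosine kinases (chr3R:23343001-23345001), and another of 1450 bp in an intron of chrb (chr3L:11490901-11492351). The longest at 50 bp was a member of 1000 bp at Polr3B (chr2R:12041601-12042601). On the outer side, 52 shared mitotic peaks were covered over 50 bp, the smallest overlap found, with a median length of 150 bp, and the longest of them, chr3R:13877601-13883351 near E5, measured 5750 bp.

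Most centers of mitosis-only peaks lay in introns or between genes, and a smaller share than of shared mitotic peaks lay at promoters. The share of the genome that each of these places makes up was not computed. Of their centers, 433 fell in introns (36.9%, interval 34.1 to 39.6%), 417 outside genes (35.5%, interval 32.8 to 38.3%), 295 in exons (25.1%, interval 22.7 to 27.7%) and 30 within 100 bp of a transcription start site (TSS; 2.55%, interval 1.79 to 3.62%). Centers of shared mitotic peaks fell in introns at 23.3%, outside genes at 14.5%, in exons at 45.3% and at a TSS at 16.9%. Interphase-only peaks, which had about the same lengths as the members, fell in exons at 61.9%, in introns at 22.4% and outside genes at 13.8%. Members thus differed from interphase-only peaks by -36.8 percentage points in exons (interval -40.2 to -33.3), by 14.5 points in introns (interval 11.0 to 17.9) and by 21.7 points outside genes (interval 18.5 to 24.9). Among peaks up to 250 bp alone the exon difference was -30.2 points (interval -34.6 to -25.6), with 221 of 749 members and 559 of 936 interphase-only peaks in exons. Among peaks over 1200 bp it was -35.6 points (interval -43.8 to -26.6). The 417 members outside genes lay a median of 3907 bp from the nearest gene, with 69 of them within 1000 bp and 122 beyond 10000 bp. The center of a member lay a median of 3751 bp from the nearest TSS (interval 3405 to 4147), that of a shared mitotic peak 359 bp (interval 340 to 380) and that of an interphase-only peak 2272.5 bp (interval 2016 to 2451).

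**Figure D2:**
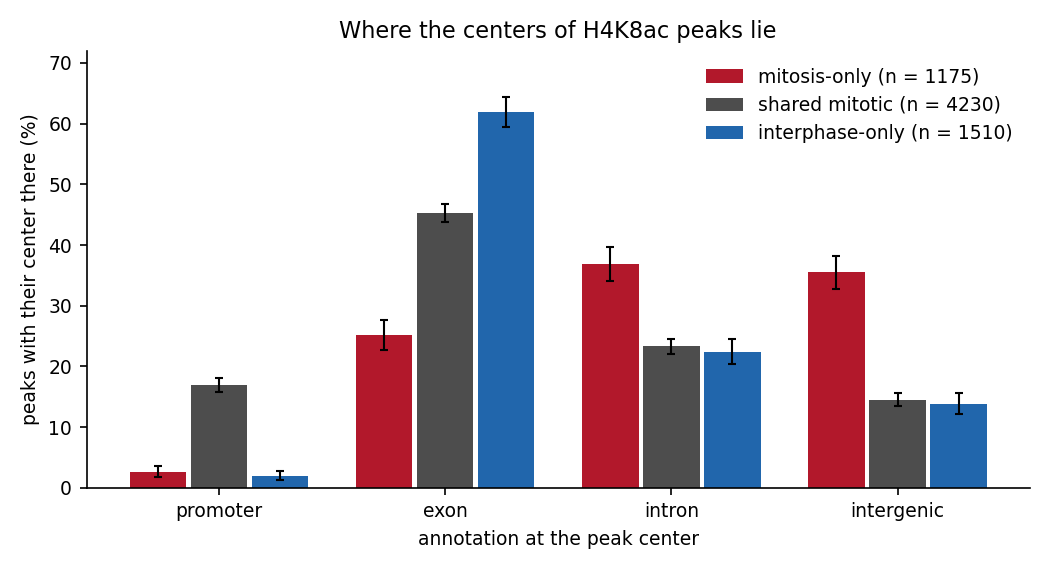
Bars give the percentage of peak centers (vertical axis) in promoters, exons, introns and intergenic sequence for mitosis-only, shared mitotic and interphase-only H4K8ac peaks, with 95% Wilson intervals. Introns and intergenic sequence together held most mitosis-only centers (36.9% and 35.5%), while exons held most interphase-only centers (61.9%).

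A promoter, taken as 100 bp to each side of a TSS, was overlapped by 116 of 1175 members (9.87%, interval 8.30 to 11.7%) and by 3125 of 4230 shared mitotic peaks (73.9%), a difference of -64.0 points (interval -66.0 to -61.7). Longer peaks reach more promoters, and the interval of the difference excluded 0 in every length class. It was -14.3 points up to 250 bp (interval -18.8 to -10.2), -62.1 points at 300 to 600 bp (interval -67.2 to -55.2), -58.1 points at 650 to 1200 bp (interval -65.6 to -48.2) and -60.7 points over 1200 bp (interval -66.1 to -54.2). For the TSS base itself the interval held 0 up to 250 bp, with 11 of 749 members (1.47%) and 8 of 386 shared peaks (2.07%, difference -0.604 points, interval -2.67 to 0.926). Over 1200 bp, 41 of 194 members (21.1%) and 1977 of 2416 shared peaks (81.8%) held a promoter. Shared peaks of this class were the longer ones (up to 92850 bp, against 8800 bp for members). In windows of 400 bp at the peak center, of equal size for every peak, 10.6% of members and 43.8% of shared peaks met a promoter (difference -33.2 points, interval -35.4 to -30.8). Among peaks over 1200 bp these windows gave 9.28% and 35.0% (difference -25.7 points, interval -29.5 to -20.4). Interphase-only peaks met promoters at 153 of 1510 (10.1%), and members minus interphase-only peaks gave -0.26 points (interval -2.52 to 2.06).

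**Figure D3:**
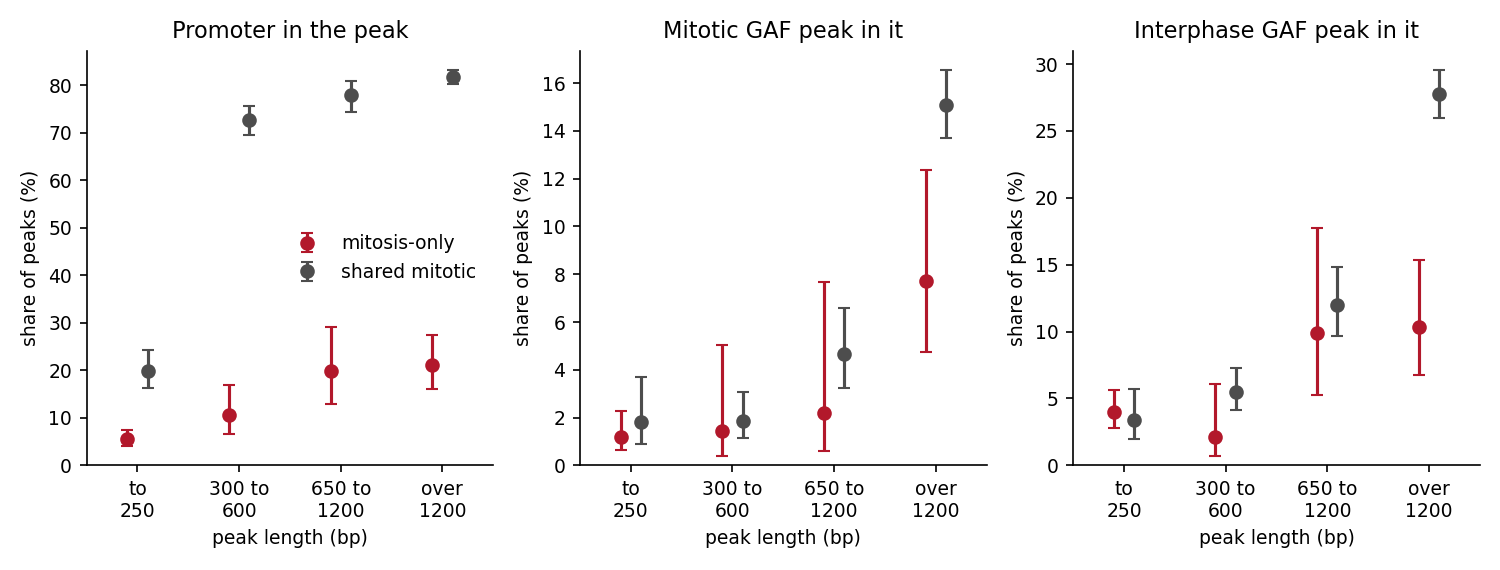
Points give the percentage of peaks (vertical axes) that overlap a promoter, a mitotic GAF peak or an interphase GAF peak in 4 classes of peak length in bp, for mitosis-only and shared mitotic H4K8ac peaks, with 95% Wilson intervals. Promoter shares are apart in every class (21.1% against 81.8% over 1200 bp), while GAF shares are apart only over 1200 bp (7.73% against 15.1% for mitotic GAF). Peak length is not matched over 1200 bp, where 400 bp windows gave 9.28% against 35.0% for promoters and 2.58% against 3.35% for mitotic GAF.

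A TSS lay inside 69 members, and these were the start sites of 88 gene entries, 0.48% of the 18315 in the annotation. Of the 88, 6 are entries for mature microRNAs, which the annotation lists beside the microRNA genes. They lie in the member at mir-13a and mir-13b-1 and in that at mir-iab-8 and mir-iab-4. Without the 481 mature microRNA entries, left out after seeing the data, 82 of 17834 genes (0.460%) started in a member, 60 of them protein-coding and 22 noncoding RNA genes. The 22 include mir-13a, mir-13b-1 and mir-iab-8, whose start is the end of a short annotated entry. Whether transcription starts there was not examined. For 57 of the 82 genes every annotated TSS lay in the member, 3 had another TSS in a shared mitotic peak and 5 had another TSS in an interphase peak. A shared mitotic peak covered a TSS of 5667 genes (31.8%). Of the 13981 protein-coding genes 60 (0.429%) started in a member, and of the 2808 noncoding RNA genes 22 did (0.783%, interval 0.518 to 1.18%).

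The longest members with a TSS held genes of several kinds. A member of 5200 bp at Eip75B (chr3L:17998801-18004001), which encodes an ecdysone-induced nuclear receptor, covered 1 of its 7 start sites, lay 44950 bp from any interphase H4K8ac peak and overlapped GAF peaks of both stages. A member of 5050 bp held the start of lncRNA:CR44931 (chr3R:6884101-6889151), and members of 5000, 4200 and 4050 bp held those of CG15905, of CG44227 with lncRNA:CR44937, and of CG12493 with lncRNA:CR43881. Further members started lncRNA:CR44922 (3600 bp), lncRNA:CR44886 (3450 bp), CG18234 and CG4174 (3000 bp), and Egfrap (2900 bp). Doc1, a Dorsocross T-box factor of the amnioserosa, had 1 of its 2 start sites in a member of 3200 bp (chr3L:9041451-9044651) that lay 2250 bp from an interphase peak. Of these 10 longest members with a TSS only that at Eip75B overlapped a GAF peak.

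The longest member of all measured 8800 bp (chr3L:26513301-26522101), lay 109850 bp from the nearest interphase peak and 141944 bp from the nearest gene, CG42598, and 6.5% of the 400 bp at its center was soft-masked repeat. On the other chromosomes the longest members were 5250 bp in an intron of CG9380 (2R), 5150 bp in an intron of aus (3R), 4050 bp in an intron of CG32982 (2L), 3700 bp in an intron of lncRNA:CR45668 (X), 3050 bp near CR46171 (Y) and 2500 bp near Cadps, a regulator of vesicle release (4). Of these 7 members only that at lncRNA:CR45668 met a GAF peak, and it met peaks of both stages.

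The number of early patterning genes that started in a member was too small to compare with that of all genes. Over 90 genes of 8 lists (gap and terminal, pair-rule, segment polarity, dorsoventral, Hox, head and gut, neural, early zygotic), 2 had a TSS in a member (2.22%, interval 0.612 to 7.74%, beside 0.48% of all entries), and 35 had a TSS in a shared mitotic peak (38.9%). The 2 genes were Doc1 among 22 dorsoventral genes and ac (achaete), a proneural helix-loop-helix factor, among 15 neural genes. The member at ac was 2000 bp long (chrX:368751-370751), lay 23600 bp from an interphase peak and overlapped GAF peaks of both stages. None of 92 ribosomal protein, 71 oxidative phosphorylation and 111 histone genes started in a member (0 of 274, upper bound of the interval 1.38%). This bound lies above the 0.48% of all entries, so that the 0 cannot show a lower share. It also counts each gene on its own, although neighboring histone genes can share a peak. A shared mitotic peak held the start of 224 of them (81.8%), which were 75 ribosomal protein (81.5%), 38 oxidative phosphorylation (53.5%) and all 111 histone genes. The lists of 21 cell cycle, 19 Polycomb and Trithorax, 12 chromatin acetylation, 19 heat shock, 70 cuticle protein and 11 E(spl) complex genes gave 0 as well, and 3 of 185 odorant and gustatory receptor genes, Or88a, Gr85a and Gr93d, started in a member (1.62%, interval 0.553 to 4.66%). The lists and the members were chosen with earlier results of these data known.

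Taken by gene body, members lay within 1000 bp of 967 gene entries, 5.28% of all entries (952 genes without the mature microRNAs, 5.34%), and of 19 of the 90 patterning, neural and early zygotic genes (21.1%, interval 14.0 to 30.6%). Long genes were met more often, at 12.9% of the 4580 longest entries, 2.58% of the 4573 shortest and 29.5% of the 1046 genes of at least 20 kb (interval 26.9 to 32.4%). Entries met had a median length of 7.35 kb, against 1.64 kb for all entries. Among the 8 Hox genes, which set segment identity, 5 had a member in or near them (62.5%, interval 30.6 to 86.3%), and these were lab, pb, Antp, Ubx and abd-A, chosen here after their values were seen. Their lengths were 17.2, 34.3, 103.0, 77.8 and 22.8 kb, and the part of gene length in their share was not tested. The longest member at Antp measured 1600 bp in an intron and that at lab 300 bp, and the longest at pb, Ubx and abd-A each measured 100 bp. Further genes of the lists with a long member in or near them, also picked after their values were seen, were twi, the mesoderm determinant (1600 bp, intron), tup (1700 bp), mid (1300 bp) and oc, a head gap gene (1800 bp, outside the gene).

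Several genes held groups of members. Myo81F, a gene of 1966 kb at the centromeric base of 3R, held 11 members of 100 to 1900 bp and 4 shared mitotic peaks. Cph on X held 6 members and 1 shared peak, and lncRNA:CR44357, which overlaps it, 6 members and 4 shared peaks. At baz, which encodes the polarity protein Par-3 of flies, 5 members lay in a gene of 40.7 kb, the longest of 3450 bp (chrX:17177901-17181351). CG32816, whose 154 kb span the achaete gene, held 5 members, of which that at ac was the longest. The Bithorax Complex transcript lncRNA:iab8 held 3 members, and the longest, 2050 bp at the microRNA gene mir-iab-8 (chr3R:16856301-16858351), overlapped GAF peaks of both stages. On 4, bt (titin-like) held 4 members and sv (Pax2) 3. These genes were chosen for their number of members after it was seen.

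Over all lengths, GAF peaks met a smaller share of mitosis-only peaks than of shared mitotic peaks. The share that arbitrary sequence of the same lengths would meet was not computed. A mitotic GAF peak overlapped 28 members (2.38%, interval 1.65 to 3.42%) and 415 shared mitotic peaks (9.81%), a difference of -7.43 points (interval -8.61 to -6.08). An interphase GAF peak overlapped 62 members (5.28%, interval 4.14 to 6.71%) and 802 shared peaks (19.0%), a difference of -13.7 points (interval -15.3 to -11.8). In the other direction, 31 of 1839 mitotic GAF peaks (1.69%) and 66 of 4970 interphase GAF peaks (1.33%) lay in a member, against 614 (33.4%) and 1188 (23.9%) in shared mitotic peaks. By length, the interval of the difference excluded 0 only over 1200 bp, a class in which shared peaks were the longer ones (up to 92850 bp, against 8800 bp for members). There the mitotic GAF share was 15 of 194 members (7.73%) and 15.1% of shared peaks (difference -7.33 points, interval -10.7 to -2.50), and the interphase GAF share 10.3% and 27.7% (difference -17.4 points, interval -21.4 to -12.1). In 400 bp windows at the centers of these long peaks both intervals held 0, with 2.58% and 3.35% for mitotic GAF (difference -0.775 points, interval -2.45 to 2.60) and 6.19% and 9.35% for interphase GAF (difference -3.17 points, interval -6.05 to 1.28). In the 3 shorter classes the intervals of the difference held 0 for both GAF lists, for example -0.612 points up to 250 bp for mitotic GAF (interval -2.58 to 0.804). In 400 bp windows over all lengths, mitotic GAF met 2.21% of members and 3.07% of shared peaks (difference -0.861 points, interval -1.76 to 0.257), and interphase GAF 5.70% and 7.90% (difference -2.19 points, interval -3.65 to -0.527). Interphase-only peaks met mitotic GAF peaks at 1.32% (members minus interphase-only 1.06 points, interval 0.039 to 2.20), with an interval that held 0 in each length class, and interphase GAF peaks at 4.30% (0.97 points, interval -0.64 to 2.67).

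Members with GAF peaks of both stages numbered 25, and their median length of 1550 bp was far above that of the 1110 members with no GAF peak (200 bp). Longer peaks reach more GAF peaks by their size. In 400 bp windows at the center, mitotic GAF met 2.27% of members up to 250 bp and 2.58% of those over 1200 bp. A GAF peak of interphase alone met 37 members (median 200 bp), and one of mitosis alone met 3. Those 3 (chr3L:24674451-24674901, chr3L:26949951-26950101 and chrY:1051551-1051701) had 100%, 96.3% and 73.3% of the 400 bp at their centers soft-masked as repeat. Besides Eip75B and ac, members with a mitotic GAF peak held annotated start sites of sd, the TEAD factor of Hippo signaling (2600 bp, chrX:15811401-15814001, 3 of 7 start sites). Others held those of lncRNA:CR45564 and lncRNA:CR45565 (2700 bp), lncRNA:CR44619 (2550 bp), CG12768 (2400 bp), mir-iab-8 (2050 bp) and CG31612 (2000 bp). Further ones held those of CG12402 and Or88a, an odorant receptor (2000 bp), and of Pdk1, a kinase of insulin signaling (1500 bp). A member of 100 bp (chr3R:12468101-12468201) lay 324 bp from the heat shock gene Hsp70Ba, and overlapped GAF peaks of both stages.

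Most mitotic GAF peaks inside members held the GAF motif. In 400 bp windows at their centers, 28 of 31 mitotic GAF peaks in members held GAGAG on either strand (90.3%, interval 75.1 to 96.7%), as did 93% of the 614 in shared peaks (interval 90.7 to 94.8%) and 91.0% of all 1839. Of all 400 bp tiles of the reference 38.1% held GAGAG. The mitotic GAF peaks in members had a median of 7 matches and those in shared peaks a median of 6. The 3 with no match anywhere in the GAF peak lay near scro, near CG40228 and near PRY on Y, and 100%, 96.4% and 97.6% of their bases were soft-masked. Over 80% soft-masked were 5 of the 31 (16.1%) and 15 of the 614 (2.44%).

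Members were poorer in GC and richer in repeats than both other classes over all lengths, and closer to shared peaks among long peaks. The 400 bp at the center of a member had a median GC content of 40.8% (interval 39.8 to 42.0%, quartiles 35.0 and 48.8%), that of shared mitotic peaks 45.3% (interval 44.8 to 45.5%) and that of interphase-only peaks 53.0% (interval 52.5 to 53.8%). The mean over all 400 bp tiles of the reference was 42.1%, and the mean over members was 42.3%. Up to 250 bp the medians were 40.8% for members, 51.0% for shared and 53.0% for interphase-only peaks, and over 1200 bp they were 40.5%, 42.8% and 46.8%. At 650 to 1200 bp the intervals of members (39.3 to 43.5%) and shared peaks (42.0 to 44.3%) overlapped. Soft-masked repeat made up 21.8% ± 25.4 (SD) of these windows in members, 13.9% ± 15.2 in shared and 10.1% ± 14.8 in interphase-only peaks, and 20.9% of the reference tiles. More than 50% of the window was masked in 121 members (10.3%), in 2.27% of shared peaks (difference 8.03 points, interval 6.34 to 9.94) and in 2.38% of interphase-only peaks. The difference from shared peaks was 6.86 points up to 250 bp (interval 3.28 to 10.1), but its interval held 0 at 650 to 1200 bp (2.79 points, interval -0.189 to 9.20) and over 1200 bp (2.01 points, interval -0.11 to 5.85). An annotated transposon held the center of 136 members (11.6%), against 2.34% of shared peaks, a difference of 9.23 points (interval 7.46 to 11.2) that was present in each length class. Among the 900 members over 5 Mb from the centromeric ends of the arms, an alternative chosen after seeing the data, the median GC content was 43.5% and the soft-masked mean 16.4%. How reads that map to several places were treated is not given in the sources used here.

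**Figure D4:**
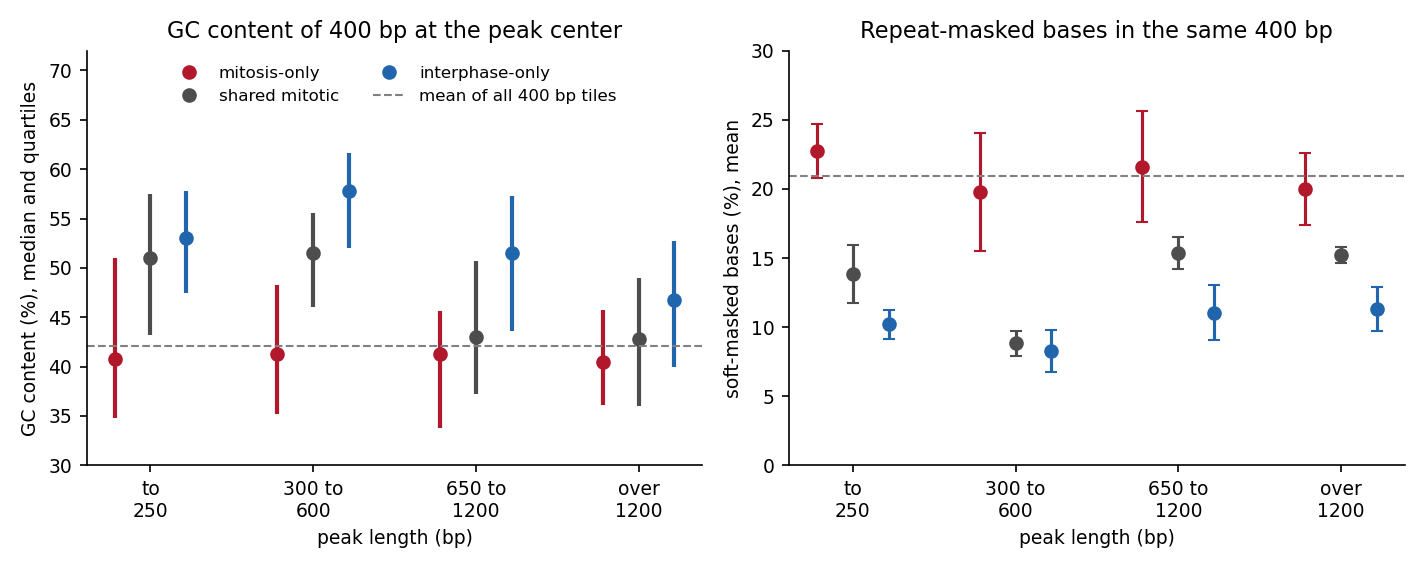
The left plot gives the GC content in percent of the 400 bp at the peak center, as median (points) and quartiles (lines), in 4 classes of peak length in bp. The right plot gives the mean percentage of soft-masked bases with its 95% interval in the same windows, and in both the dashed line is the mean of all 400 bp tiles (42.1% and 20.9%), near which the mitosis-only points lie in every class.

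Of 3 motifs, TATCGATA was less frequent in members than in shared peaks over all lengths, and for GAGAG and CAGGTAG the interval of the difference held 0 in 400 bp windows. GAGAG, on either strand, occurred in the central 400 bp of 423 members (36.0%, interval 33.3 to 38.8%), in 37.7% of shared peaks (difference -1.71 points, interval -4.78 to 1.43), in 43.2% of interphase-only peaks and in 38.1% of reference tiles. CAGGTAG, on either strand, occurred in 41 members (3.49%, interval 2.58 to 4.70%), in 4.52% of shared peaks (difference -1.03 points, interval -2.15 to 0.318) and in 2.17% of tiles. The CAGGTAG interval excluded 0 in 1000 bp windows (difference -2.77 points, interval -4.48 to -0.863) and for members at least 2000 bp from an interphase peak (difference -1.66 points, interval -2.78 to -0.231). TATCGATA, which reads the same on both strands, occurred in 25 members (2.13%, interval 1.45 to 3.12%), in 5.51% of shared peaks (difference -3.38 points, interval -4.38 to -2.19), in 0.464% of interphase-only peaks and in 1.13% of tiles. The interval of its difference from shared peaks held 0 at 300 to 600 bp (-1.87 to 2.60) and at 650 to 1200 bp (-9.42 to 2.47). Among members over 5 Mb from the centromeric ends, a setting chosen after seeing the data, its share was 1.33% (interval 0.764 to 2.32%). None of these motifs contains another.

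By chromosome, members made up 18.1 to 24.6% of the mitotic peaks on the large arms and, over all lengths, larger shares on 4 and Y. They were 205 of 971 peaks on 2L (21.1%), 256 of 1135 on 2R (22.6%), 282 of 1146 on 3L (24.6%), 216 of 1195 on 3R (18.1%) and 168 of 837 on X (20.1%). On 4, the small and mostly heterochromatic autosome, they were 29 of 88 (33.0%, interval 24.0 to 43.3%), and on Y they were 19 of 32 (59.4%, interval 42.3 to 74.5%). Among peaks of at least 400 bp the share on 4 was 12.3% (interval 6.37 to 22.5%) and overlapped those of the arms, which were 7.67 to 11.0%, while 57.1% of the 7 such peaks on Y were members (interval 25 to 84.2%). The intervals of 3L over all lengths (22.2 to 27.2%) and 3R (16.0 to 20.4%) did not overlap, while those of 2L, 2R and X overlapped each other. Members on Y lay a median of 63550 bp from an interphase peak, those on the other chromosomes 4050 to 5950 bp. Members per Mb ranged from 5.18 on Y to 10.1 on 2R among these, and chromosome 4 had 21.5. The single mitochondrial peak of the mitotic list was shared.

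Within 5 Mb of the centromeric end of 2L, 2R, 3L, 3R and X, members were 227 of 668 mitotic peaks (34.0%, interval 30.5 to 37.7%), and in the rest of these arms 900 of 4616 (19.5%, interval 18.4 to 20.7%), a difference of 14.5 points (interval 10.8 to 18.3). The share near the centromere was highest on 2R (61 of 107, 57%) and 3L (40 of 77, 51.9%) and lower on 3R (32.3%), 2L (26.4%) and X (22.2%), where the intervals of the 2 zones overlapped on 2L and X. Interphase-only peaks made up 27.7% of interphase peaks near the centromere (interval 24.3 to 31.3%) and 25.9% in the rest (interval 24.7 to 27.1%). Over 50% soft-masked windows were found in 74 of the 227 members near the centromere (32.6%) and in 36 of the 900 others (4%). By length, an alternative chosen after seeing the data, the difference was 12 points up to 250 bp (interval 4.80 to 18.4), 12.7 points at 300 to 600 bp (interval 4.87 to 22.0), 1.59 points at 650 to 1200 bp (interval -5.18 to 11.7) and 8.75 points over 1200 bp (interval 4.98 to 13.3). Among peaks of at least 400 bp members made up 15.8% near the centromere and 7.75% in the rest. The median length was 200 bp in both zones, and the median distance to an interphase peak was 10000 bp near the centromere and 3950 bp elsewhere.

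**Figure D5:**
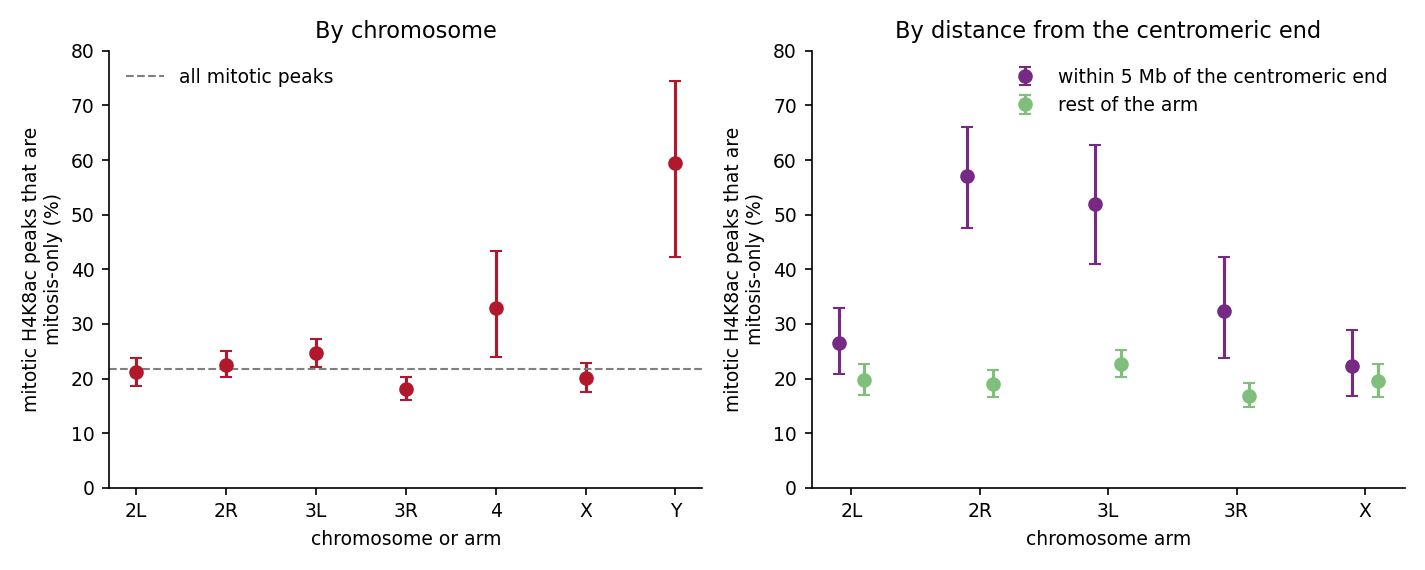
Points give the percentage of mitotic H4K8ac peaks that were mitosis-only (vertical axes) with 95% Wilson intervals, on the left for each chromosome or arm beside the share in the whole list (dashed line, 21.7%) and on the right for the 5 Mb next to the centromeric end and for the rest of each arm. The shares on 4 (33.0%) and Y (59.4%) and near the centromeric end of 2R and 3L (57% and 51.9%) are the high ones.

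Some members lay side by side. Members made up 21.7% of mitotic peaks, and whether runs were more frequent than this share alone gives was not tested. Along the chromosomes they formed 788 runs of mitotic peaks with no shared peak between them, of which 553 were lone members, 148 were pairs, 53 had 3 members and 34 had 4 or more. The longest run had 12 members over 574000 bp at the centromeric base of 2R (chr2R:1834451-2408451), of 100 to 2350 bp, and the genes in it were CG17684, CR40100 and asRNA:CR46487. Of the 7 runs of 6 members, one covered 20200 bp at ap, the LIM factor of the dorsal wing (chr2R:5723051-5743251), where the longest member measured 2100 bp. Another lay at the piRNA cluster lncRNA:flam on X (chrX:21629951-21958901) and began with a member of 1750 bp over the start sites of DIP1 and lncRNA:CR44712.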

How the data were processed

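H4K8ac and GAF were measured by ChIP-seq in interphase and mitotic embryos, with an input for each sample. The authors trimmed reads with Cutadapt (1.16), mapped them to dm6 with Bowtie2, computed coverage in 50 bp bins with PASHA scaled to the number of reads, subtracted input, averaged replicates and called peaks by thresholding. The deposited lists hold peak positions in bp only, so depth, scores and values per sample were not analysed here. The names of the deposited H4K8ac lists give a minimum run and maximum gap other than those in the study's methods, and the smallest gap found between mitotic H4K8ac peaks was 2000 bp.

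Members were mitotic peaks sharing less than 1 bp with the interphase list, checked with bedtools (2.31.1). Promoters reached 100 bp to each side of each TSS of Ensembl release 115, and center windows were 400 bp. Shares have 95% Wilson intervals and differences 95% Newcombe intervals. No p-value was computed, since peaks of a pooled list are not replicates. Python (3.11.15), NumPy (2.4.6), pandas (2.3.3), SciPy (1.17.1) and Matplotlib (3.10.9) were used, and the overlap and interval code was tested on simulated data.

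Named genes were those with a TSS in the 10 longest members that hold a TSS, list genes with a TSS in a member, genes with a TSS in the 10 longest members that also overlapped a mitotic GAF peak, the gene nearest the longest member of each chromosome and genes of the longest run. Other genes named were chosen after their values were seen. The members and gene lists were chosen with earlier results of these data known. Alternatives were the overlap rule, minimum length, distance, promoter definition, GAF list, window and chromosomes. The authors' list of H4K8ac peaks of both stages was not used.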

Additional observations from a re-analysis of the deposited data

How the results depend on the processing

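Of 113 values recomputed under alternative settings, 60 moved by less than their counting interval, or for a count by less than 1.5 times, and 53 moved by more. A change of sign was looked for only in differences whose main interval excluded 0, and it was found in 0 of them. Counting mitotic peaks covered over less than 50% as members gave 1822 of them, with a median length of 450 bp, a median distance of 1950 bp, a promoter share of 24.5% (-53.5 points against shared peaks), a mitotic GAF share of 6.20% (-3.01 points), an interphase GAF share of 11.7% (-6.40 points) and a share of 49.0% of mitotic peaks near the centromere. Calling the overlap on peaks of at least 400 bp in both lists gave 604 members with a median length of 1275 bp and a median distance of 8675 bp. Among members of at least 400 bp the promoter share was 18.5%, the mitotic GAF share 5.49% (-5.78 points), and the interphase GAF share 8.67%, and members made up 15.8% of mitotic peaks of that length near the centromere.

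The promoter share was 18.0% (-59.3 points) with promoters reaching 1000 bp upstream, 5.87% (-53.1 points) for the TSS base itself and 8.26% for protein-coding genes. The authors' list of interphase GAF peaks named as overlapping mitotic ones, of whose 2362 peaks 835 overlapped no peak of the mitotic GAF list used here (median length 750 bp, against 300 bp in the mitotic list), met 5.62% of members (-9.42 points), and 2.38% of members held at least 50% of an interphase GAF peak. Members at least 2000 bp from interphase peaks were 24.1% soft-masked on average. Away from the centromeric ends, a setting chosen after seeing the data, the median GC content was 43.5% and the soft-masked mean 16.4%. Taking gene bodies within 1000 bp in place of start sites gave 967 gene entries, and leaving out mature microRNA entries gave 82.

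No paired analysis was possible because the lists pool the replicates, and leaving out each replicate was not run for the same reason. Peaks near the calling threshold cannot be told from those far above it, and the spread between replicates is unknown.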
